A study of Mus musculus with 6 samples.

Results

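Exonic circular RNAs are RNA loops built from exons only, and the ones described here are those whose genomic span, the distance from the first to the last base of the circle on the chromosome, was under 10000 bases. They were taken from the study's annotated list of circular RNAs (circRNAs): of 1257 readable circRNAs in that list, 1029 were of the exonic type, and 423 of these had a span under 10 kb. The array itself carried probes for 14236 circRNAs, so the 423 are the readable short exonic ones and not all such circles on the array. The readable list holds circRNAs with a higher mean in the surgery group, and all 1257 of its probes begin with the base A because the list is ordered by probe sequence. The direction of the difference between the groups was therefore fixed by the choice of circRNAs, and counts of higher members are a description with nothing read from their direction.

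Hippocampi were taken from male C57BL/6J mice aged 12 months, 72 h after the procedure. In the surgery group (tibial fracture in the labels, 3 mice) the tibia of the left hind leg was broken and fixed with an intramedullary nail under isoflurane with butorphenol pain relief. The paper spells that drug butylphenol. The control group (3 mice) received that anesthesia and pain relief without the fracture, so the comparison asks what surgery added to anesthesia. RNA of each mouse was digested with RNase R, an enzyme that degrades linear RNA, and was hybridized to a one-color array of its own, and all 6 arrays lay on 1 slide. The mice had also been used in behavioral tests.

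A circRNA forms when the spliceosome joins the end of an exon back to the start of the same or an earlier exon, a step called back-splicing. Because the loop has no free ends it resists exonucleases, and circRNAs are abundant in brain, where many arise from genes of synapses. An array tells a circle from its linear messenger by a probe laid across the back-splice junction, a sequence order that the linear RNA does not have.

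The junction could be seen directly where 2 circles of a gene used the same exon end, since their probes then share the bases on one side of the junction only. Of 9 such pairs, 3 joined 2 members, and these show how probes for overlapping circles differ. Capitals mark the shared exon end and lower case the bases that differ or were not shared; the boundary may lie a base off where the next base matches by chance. Coordinates are of the mouse build GRCm38 as the annotation gives them, and starts may count from 0 or from 1 by source. Both Acbd3 circles ended at the same exon of a Golgi protein gene on the plus strand, chr1:180733165-180738637 (5472 bases) and chr1:180736691-180738637 (1946 bases), and began at different exons.
mmu_circRNA_21453: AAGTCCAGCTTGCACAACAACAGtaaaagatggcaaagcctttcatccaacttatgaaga
mmu_circRNA_21454: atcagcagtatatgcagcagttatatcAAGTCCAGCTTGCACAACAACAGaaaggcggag
The Gtpbp4 pair, from a GTP-binding protein of ribosome assembly on the minus strand, shared the first 30 bases of the probe and then ran into different exons (chr13:8985208-8992815 and chr13:8985208-8992035).
mmu_circRNA_25974: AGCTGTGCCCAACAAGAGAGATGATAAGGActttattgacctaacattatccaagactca
mmu_circRNA_25973: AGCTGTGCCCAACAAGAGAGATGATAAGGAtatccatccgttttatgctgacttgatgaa
For Uck2, a uridine-cytidine kinase gene on the minus strand, the shared part was the start of the circle's first exon, seen as the last 13 bases of both probes (chr1:167227731-167237648 and chr1:167229892-167237648).
mmu_circRNA_21241: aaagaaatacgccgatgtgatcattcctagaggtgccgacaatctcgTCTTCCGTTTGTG
mmu_circRNA_21242: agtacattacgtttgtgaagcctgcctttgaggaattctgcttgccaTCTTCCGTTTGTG
In another 6 pairs the partner was an exonic circle of 10 kb or more, from Enah, Cdk13, R3hcc1l, Elavl2, Zcchc17 and Hdgfrp3. The Elavl2 member, from a neuronal RNA-binding protein gene, had the circle start at base 34 of its probe (chr4:91308610-91311663, minus strand).
mmu_circRNA_008058: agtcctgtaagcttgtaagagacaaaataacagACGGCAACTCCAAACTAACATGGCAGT

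The next probes belong to some of the members with large measured differences. These probes had no sharing partner, so their junction was not located and they are shown in lower case throughout. They are given because the values that follow rest on these 60 bases. The Anapc4 circle spanned chr5:52839621-52845407 on the plus strand, the Unc80 circle chr1:66521454-66530853 on the plus strand, the Tbc1d12 circle chr19:38907771-38911095 on the plus strand and the Grin3a circle chr4:49770418-49771466 on the minus strand.
mmu_circRNA_38606, Anapc4: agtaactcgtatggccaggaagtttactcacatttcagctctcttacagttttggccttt
mmu_circRNA_20282, Unc80: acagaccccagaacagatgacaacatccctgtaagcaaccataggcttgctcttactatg
mmu_circRNA_32565, Tbc1d12: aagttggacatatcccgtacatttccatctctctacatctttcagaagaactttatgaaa
mmu_circRNA_36776, Grin3a: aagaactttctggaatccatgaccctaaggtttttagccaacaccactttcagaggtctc
Both Ankra2 circles and the shorter of the leading ubiquitin-ligase circles, from Ltn1, were measured with the following probes (chr13:98266150-98272852 and chr13:98267315-98268495, plus strand, and chr16:87420172-87420982, minus strand).
mmu_circRNA_26813, Ankra2: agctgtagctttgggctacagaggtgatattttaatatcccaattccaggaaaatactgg
mmu_circRNA_26814, Ankra2: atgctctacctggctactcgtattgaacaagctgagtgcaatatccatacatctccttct
mmu_circRNA_29986, Ltn1: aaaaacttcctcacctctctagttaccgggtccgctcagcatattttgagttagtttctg

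The 423 members came from 406 host genes, and 16 genes gave more than 1 member. Spans ran from 102 to 9987 bases with a median of 3636 bases. The members lay on 20 chromosomes, with 37 on chromosome 11, 32 on chromosome 2 and 31 on each of chromosomes 5 and 9. The plus strand held 214 and the minus strand 209. Host genes were shorter than those of the 606 exonic circles of 10 kb or more, with a median length of 64501 against 123904 bases, and a member took up a median of 4.95% of its gene against 22.2%. Circles of 10 kb or more need a gene of at least that length, so this contrast is partly built into the rule. The circle began at a median of 51.1% of the gene's length for the members and 41.9% for the longer circles. Mean GC content of the 60-base probes was 44.4% ± 4.52 (SD, 423 probes) for the members and 43.1% ± 3.85 (SD, 606 probes) for the longer circles. The Banp and Helz circles (mmu_circRNA_43572 and mmu_circRNA_24355) each held an annotated microRNA hairpin within their span, Mir7237 at chr8:121978024-121978086 and Mir6932 at chr11:107637722-107637779.

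Detection came first, because most members were dim. Their median raw intensity was between 53 and 70 on the 6 arrays, over a median local background near 13. A member counted as detected where the scanner software marked it well above background and significantly positive. Of the 423 members, surgery replicates 1 to 3 detected 409, 423 and 423, and control replicates 1 to 3 detected 283, 404 and 389. The array of control replicate 1 stood apart, and over the whole array it also detected fewest circRNA probes (9257, against 11925 to 13009 on the others). On all 6 arrays 283 members were detected, while 12 were detected on no control array. All 423 passed the filter that a circRNA be detected on at least 3 of 6 arrays. No member had a spot marked as not uniform.

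**Figure D1:**
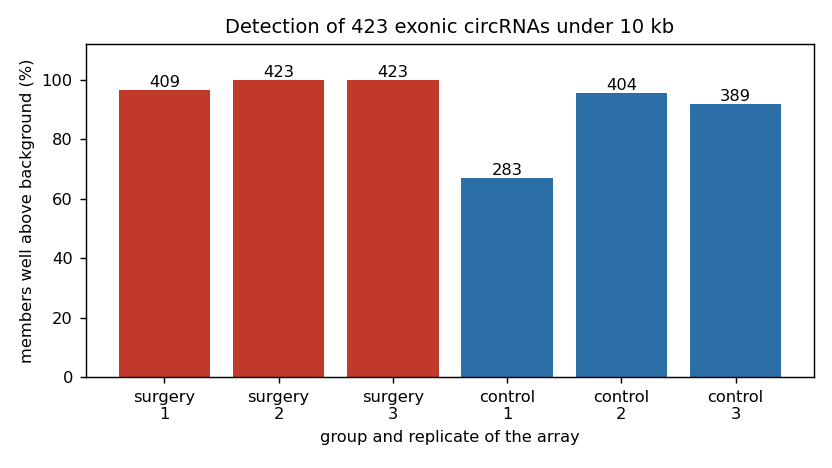
Percent of the 423 members marked well above background on each array (bars, with the count above each), for surgery replicates 1 to 3 and control replicates 1 to 3. Control replicate 1 detected 283, fewer than the 389 to 423 of the other arrays.

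Levels below are log2 intensities after quantile normalization, differences are surgery minus control on that scale, and adjusted p-values are from limma with Benjamini-Hochberg adjustment over all 12499 circRNAs tested. Where values of single mice are set against each other, surgery replicates 1 to 3 come first and control replicates 1 to 3 second. The background was not subtracted, which can shrink the log2 differences of dim circles, and whether it did so here was not tested. Quantile normalization makes all arrays share 1 distribution, and the values are thus relative to the other circRNAs. With whole hippocampus, fewer cells of a type and less of a circle per cell cannot be told apart.

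A member was called higher when its fold change was at least 1.3 at an unadjusted p of at most 0.05, the study's thresholds applied here with limma. That held for 33 of 423 members (7.80%). Among all 12499 tested circRNAs 4.19% were called higher, and among the 6097 with a higher surgery mean, which share the members' direction, 8.59% were. The members' share was near that background and is no result about short circles. The groups did not overlap for 118 members (27.9%), against 13.5% of all tested circRNAs and 27.6% of those with a higher surgery mean. An unadjusted p under 0.05 was found for 99 members (23.4%), where the same backgrounds were 11.6% and 23.7%. Both shares were close to those of the circRNAs with the same direction. The median difference of the members was 0.12, with an interquartile range from 0.05 to 0.24, and the median spread within a group was 0.13 (SD). Exonic circles of 10 kb or more had a median of 0.15 and 55 of 606 calls (9.08%), and the difference between these shares was not tested.

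After adjustment over all tested circRNAs, only the Anapc4 circle was under 0.05 (limma, Benjamini-Hochberg), where 0.048% of all tested circRNAs were. Another 28 members lay between 0.05 and 0.1, among them the Ltn1 and Med14 circles, which no control array detected. The share of all tested circRNAs in that range was not taken, so nothing is read from this count. Without control replicate 1, the array with low detection, 51 members were called in place of 33, and 29 of the 33 calls remained. Over all tested circRNAs 767 were then called higher in place of 524. Of the 33, 20 remained whichever single array was left out. The calls lost were 8 without surgery replicate 2, 7 without control replicate 3, 4 without control replicate 1, 2 without surgery replicate 3 and 1 without control replicate 2. Scaling each array to its 75th percentile over the circRNAs detected on all 6 arrays moved the median of all tested circRNAs to -0.18, and the members' median to -0.04, which is 0.14 above that shift. Under that scaling 242 members lay below 0 in place of 25, calls over the whole array went from 524 higher and 242 lower to 373 higher and 2052 lower, and all 33 called members stayed above 0, 9 of them called.

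Anapc4, a subunit of the anaphase-promoting complex that tags cell-cycle proteins with ubiquitin, gave the circle with the smallest p-value. The surgery mice had levels of 5.95, 6.14 and 5.99, and the controls 5.30, 5.40 and 5.28. The lowest surgery mouse was well above the highest control mouse, and the spread in each group was small. The difference was 0.70 (SE 0.09), a 1.62-fold higher level with an adjusted p of 0.0451 (limma), higher in 3 of 3 surgery mice than in any control mouse. The adjusted p did not stay under 0.05 without surgery replicate 2 (0.302), surgery replicate 3 (0.0609), control replicate 2 (0.118) or control replicate 3 (0.219), in limma. It also rose above 0.05 with the slide column (0.704) or row (0.196) in the limma fit, with no normalization between arrays (0.0827, limma), with a normexp offset of 50 (0.0733, limma) and with the methods' t-test (0.180 after Benjamini-Hochberg). Of 21 alternatives 12 kept it under 0.05, and its difference ranged from 0.44 to 1.40. Of the control arrays, 2 detected it.

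The Unc80 circle had the largest difference of all members. Unc80 is part of the complex around the sodium leak channel NALCN, which sets the resting potential of neurons. Levels were 9.01, 8.76 and 8.54 in the surgery mice and 8.37, 7.74 and 8.03 in the controls. All surgery values lay above all control values, although control replicate 1 came within a small step of the lowest surgery mouse. The difference was 0.72 (SE 0.16, adjusted p = 0.078, limma), with a wider error than that of Anapc4. It was one of 11 members whose hosts are ion channels, exchangers or pumps, of which 1 was called.

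Tbc1d12, from a family of regulators of Rab GTPases, gave a tight pair of groups. Its circle measured 6.78, 6.92 and 6.87 after surgery and 6.31, 6.22 and 6.04 in controls, a difference of 0.67 (SE 0.10, adjusted p = 0.0552, limma). The Rp2h circle, from a gene named Rp2 in RefSeq whose product acts on the small GTPase Arl3, stood at 8.08, 8.32 and 7.87 against 7.57, 7.46 and 7.39. Neither circle's groups overlapped, and the Rp2h difference was 0.62 (SE 0.12, adjusted p = 0.0641, limma).

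Zfat and Zbtb44 encode zinc-finger proteins. For Zfat the values were 6.54, 6.84 and 6.73 in the surgery group against 6.12, 6.19 and 5.98 in the control group, and for Zbtb44 5.78, 6.08 and 6.03 against 5.36, 5.40 and 5.32. The differences were 0.61 and 0.60 (adjusted p = 0.0552 for each, limma), with every surgery mouse above every control. The lowest surgery level of both circles was in replicate 1.

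Wdr7, which works with the proton pump of vesicles, gave 5.94, 6.15 and 5.89 after surgery and 5.56, 5.29 and 5.35 in controls, a difference of 0.59 (SE 0.11, adjusted p = 0.0574, limma). Cers5, an enzyme of ceramide synthesis, gave 6.04, 6.16 and 5.98 against 5.52, 5.55 and 5.46, a difference of 0.55 (SE 0.09, adjusted p = 0.0552, limma). In both the groups were apart, and 2 of 3 control arrays detected the circle. The Klhl24 circle, whose host is an adaptor of cullin ubiquitin ligases, was detected on all 6 arrays. It measured 6.80, 6.81 and 6.65 against 6.23, 6.24 and 6.16, so the control mice were almost alike, and the difference was 0.54 (SE 0.09, adjusted p = 0.0552, limma).

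**Figure D2:**
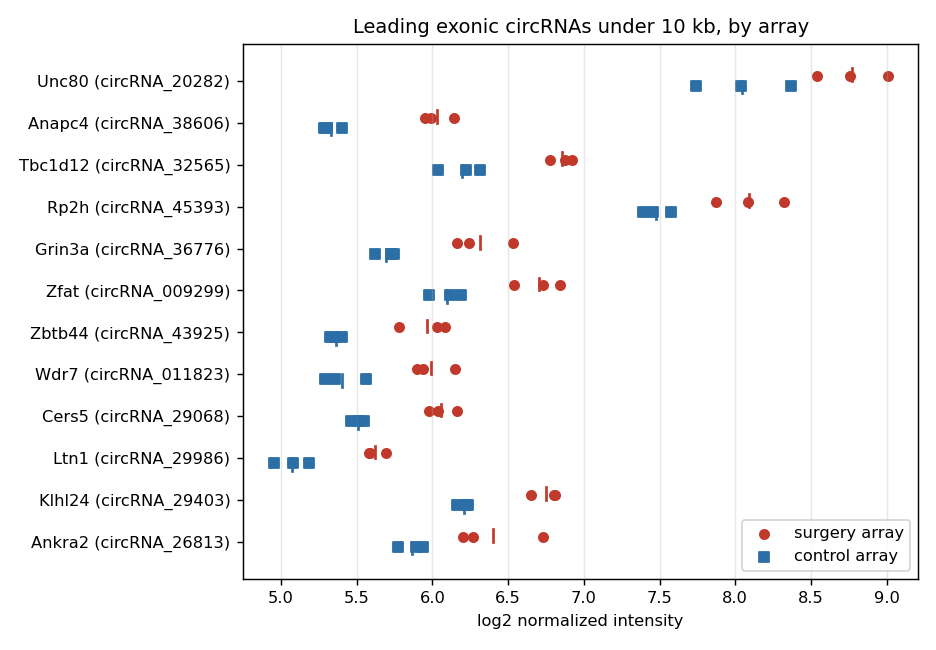
Log2 normalized intensity (x axis) of the 12 called members with the largest differences, one row per circle, with red circles for surgery arrays, blue squares for control arrays and short vertical lines at the group means. In every row the 3 surgery points lie right of the 3 control points, from a difference of 0.72 for Unc80 to 0.53 for Ankra2, and levels of different rows are not comparable.

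Host groups were drawn up with earlier results of these data in view and are described by counts only, to be read beside the shares among circRNAs with a higher surgery mean: 8.59% called, 27.6% without overlap and 23.7% with an unadjusted p under 0.05. Of 25 circles of ubiquitin and proteasome genes, 5 were called, 8 did not overlap between groups and the median difference was 0.13, against 0.12 for all members. The called Klhl24 circle was not in this group as listed and is not in its count. The calls for Ltn1 and Psmd8 rest on circles that no control array detected. Beside Anapc4, the called circles came from Ltn1, Fbxo16, Psmd8 and Usp34. Ltn1 encodes listerin, a ligase that marks unfinished peptides on stalled ribosomes. Its circle measured 5.58, 5.58 and 5.70 in surgery and 5.08, 5.18 and 4.95 in control mice and was detected on all surgery arrays but on no control array. For such a circle a floored fold is given as a description, and it is not a lower limit. It sets the surgery mean against the higher of the circle's own level and the lowest detected signal of each control array. The floored fold of Ltn1 was 1.34. It leaves out the error of the surgery mean, and it equals the measured fold where the control levels lie above those lowest signals. Such circles passed the detection filter through the surgery arrays alone. Their calls rest on control signals not above background, so nothing is read from those calls and their p-values are not given. Of the 33 called members 3 were of this kind.

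The circle of Fbxo16, an F-box protein that brings substrates to a ligase, stood at 6.59, 6.48 and 6.31 against 6.19, 5.85 and 5.81, a difference of 0.51 (SE 0.12, adjusted p = 0.0848, limma). Usp34, which removes ubiquitin, gave 6.00, 5.97 and 5.89 against 5.58, 5.61 and 5.36 and a difference of 0.43 (SE 0.10, adjusted p = 0.0783, limma), and this call was lost without control replicate 3. The groups were apart for both circles. Psmd8, a subunit of the proteasome cap, gave 5.36, 5.63 and 5.56 against 5.25, 5.09 and 4.87, again with no control array detecting it, and had a floored fold of 1.28. Its call was lost without control replicate 3. In the remaining 20 members of the group no call was made, and the Herc2 circle, from a large ubiquitin ligase, was level at 6.07, 6.36 and 5.97 against 6.23, 6.19 and 6.04.

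Kinase genes hosted 28 members, of which 2 were called and 7 did not overlap between groups, beside backgrounds of 8.59% and 27.6%. The Map4k2 circle, from a kinase of the stress-activated cascade, measured 6.51, 6.75 and 6.83 against 6.14, 6.28 and 6.22, a difference of 0.48 (SE 0.11, adjusted p = 0.073, limma). The Oxsr1 circle, from a kinase that governs chloride cotransporters, measured 6.48, 6.52 and 6.29 against 6.07, 6.00 and 6.00, a difference of 0.41 (SE 0.10, adjusted p = 0.0783, limma). Both had every surgery mouse above the controls, and the Oxsr1 call was lost without surgery replicate 2. The Taok3 and Pik3c3 circles were not called. Taok3, undetected on all control arrays, had a floored fold of 1.27, the same as its measured fold (with the limits given for Ltn1), and Pik3c3 differed by 0.34 (SE 0.10). Phosphatase hosts had 5 members, no call and 2 unadjusted p under 0.05 (limma), with a median of 0.15. In that group the circles of Ppme1 and Ppp2ca, which act on or form protein phosphatase 2A, differed by 0.25 (SE 0.09) and 0.28 (SE 0.12).

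Among receptor and transporter genes of the synapse, 8 members from 7 genes were measured, and 1 was called. The Grin3a circle, whose host encodes an NMDA receptor subunit that lowers calcium entry, measured 6.24, 6.53 and 6.16 after surgery and 5.72, 5.74 and 5.62 in controls. Surgery replicate 2 was the highest and the controls lay close together. The difference was 0.62 (SE 0.11, adjusted p = 0.0572, limma), and this circle was called under all 22 alternatives.

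Grin2b, the host of another NMDA receptor subunit, gave 2 circles. The one at chr6:135922871-135923470 measured 7.18, 7.36 and 7.35 against 6.94, 7.04 and 6.86, groups apart, with a difference of 0.35 (SE 0.10, adjusted p = 0.105, limma), just under the fold threshold. The one at chr6:136043890-136044319 measured 6.45, 6.42 and 6.29 against 6.36, 6.25 and 6.30, groups overlapping, with a difference of 0.09 (SE 0.09). Whether the circles of this gene changed differently was not tested. Their probes were:
mmu_circRNA_000233, Grin2b: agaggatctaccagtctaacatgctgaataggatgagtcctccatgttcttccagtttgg
mmu_circRNA_40969, Grin2b: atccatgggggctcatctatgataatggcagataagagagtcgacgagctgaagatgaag

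The kainate receptor gene Grik3 gave 6.01, 5.94 and 5.83 against 5.67, 5.81 and 5.72, with a difference of 0.20 (SE 0.09, adjusted p = 0.27, limma) and groups that did not overlap. Circles of the GABA-A receptor subunit genes Gabra2 and Gabrb2 differed by 0.04 (SE 0.10) and 0.18 (SE 0.11), and in each the groups overlapped. Slc17a7, the vesicular glutamate transporter of excitatory neurons, had its lowest and highest values both in the control group (8.14, 7.23 and 7.70, against 7.96, 7.76 and 7.71 after surgery). Of the genes in this group, Slc17a7 and Grin2b mark neurons.

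The amyloid precursor gene, its relative Aplp2, 2 adaptor genes and 2 sheddase genes gave 6 members, of which 0 were called and 0 had an unadjusted p under 0.05 (limma). The App circle, only 168 bases long, measured 8.52, 8.04 and 8.32 in surgery mice and 8.46, 7.72 and 8.14 in control mice, with a difference of 0.18 (SE 0.18, adjusted p = 0.589, limma). Control replicate 1 was as high as the surgery mice and control replicate 2 far below. Aplp2 differed by 0.20 (SE 0.13, and 0.04 to 0.35 over 22 alternatives), and the adaptor circles of Apba1 and Apbb2 by 0.16 (SE 0.18) and 0.14 (SE 0.09). The Apbb2 circle alone had groups that did not overlap. The Adam17 and Adam9 circles, from the sheddases, stood near 0 at 0.07 (SE 0.09) and -0.01 (SE 0.11). Without control replicate 2 the App and Apba1 differences were -0.01 and -0.07, and with scaling to the 75th percentile the Adam17 and Adam9 differences were -0.19 and -0.06.

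**Figure D3:**
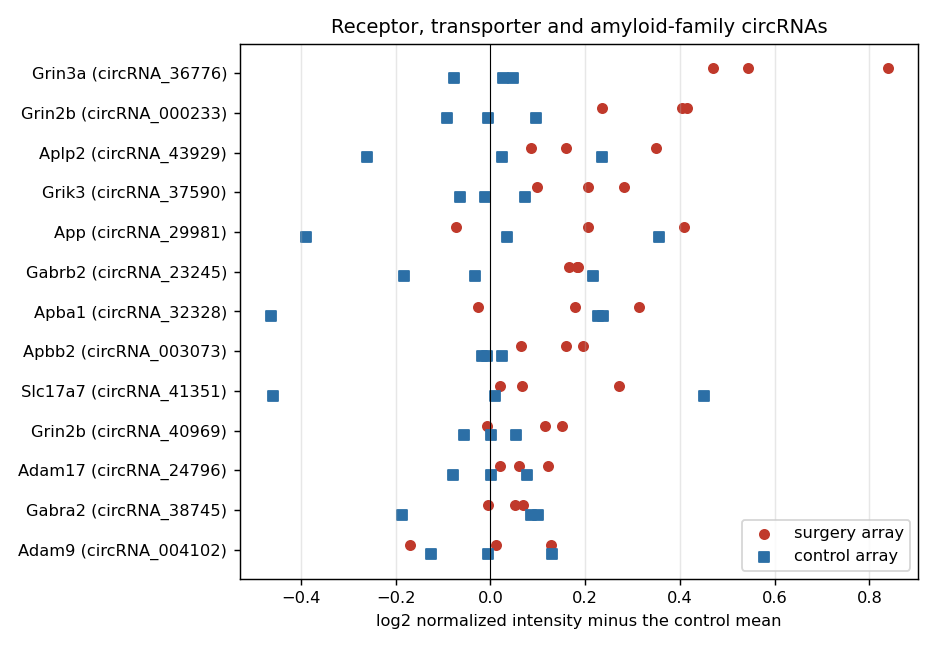
Log2 normalized intensity minus the control mean (x axis) of 13 circles from receptor, transporter and amyloid-family genes, one row per circle, with red circles for surgery arrays and blue squares for control arrays. Grin3a and the Grin2b circle 000233 have all surgery points to the right of the controls, while App, Apba1 and Slc17a7 have control points spread on both sides.

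Synaptic adhesion and scaffold genes hosted 12 members with no call and 1 unadjusted p under 0.05 (limma), and 5 of them did not overlap between groups, beside backgrounds of 8.59%, 23.7% and 27.6%. Dlgap4, a scaffold under glutamate receptors, measured 6.29, 6.05 and 6.01 against 5.89, 5.71 and 5.89, a difference of 0.29 (SE 0.11, adjusted p = 0.178, limma). Sipa1l1, which regulates spine Rap signaling, had about the same difference (0.28, SE 0.17) but with surgery values of 9.19, 8.85 and 8.38 that ran through the control values of 8.51, 8.48 and 8.57. Mpp2 and Mdga1 differed by 0.20 (SE 0.09) and 0.19 (SE 0.09), and the Homer1 circle mmu_circRNA_26704 (chr13:93346568-93356079), from a postsynaptic scaffold gene, by 0.16 (SE 0.10), its lowest surgery value barely above the highest control value. The Nlgn1 circle, from the adhesion molecule neuroligin, was detected on all 6 arrays and differed by 0.10 (SE 0.11).

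Vesicle release and endocytosis genes had 10 members, no call, 2 unadjusted p under 0.05 (limma) and the highest median of the groups, 0.18. The Esyt2 circle, from a tether of the endoplasmic reticulum to the plasma membrane, measured 8.87, 8.73 and 8.68 against 8.44, 8.51 and 8.59, a difference of 0.24 (SE 0.09, adjusted p = 0.188, limma). Ap2b1, of the clathrin adaptor, differed by 0.26 (SE 0.11), Exoc3, of the exocyst, by 0.24 (SE 0.11) and Itsn1 by 0.22 (SE 0.12). Only Esyt2 of these had groups apart, and over 22 alternatives the Itsn1 difference ran from -0.0015 to 0.46. Among channel circles other than Unc80, the Ano6 circle mmu_circRNA_004975 and the Kcnmb2 circle differed by 0.34 (SE 0.14) and 0.28 (SE 0.11), and Cacna2d3 by 0.12 (SE 0.11). The groups of that Ano6 circle overlapped, and the gene's other circle differed by 0.09.

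Chromatin genes hosted 21 members and RNA-binding or splicing genes 22, with no call in either and with 6 and 5 unadjusted p under 0.05 (limma). In the first, 6 members did not overlap between groups, and in the second 7. Within the chromatin group, Tada2a and Chd1, a histone acetylation adaptor and a remodeler, came closest with 0.37 (SE 0.12) and 0.36 (SE 0.10). Each was detected on 1 control array. The other Chd1 circle differed by 0.23. The Rere circle, from a transcriptional corepressor gene, measured 8.58, 8.58 and 8.65 against 8.51, 8.21 and 8.27, with control replicate 1 just under the surgery mice. The Fxr2 circle, from a relative of the fragile X protein and only 308 bases long, measured 6.19, 6.26 and 6.31 against 5.69, 5.91 and 6.02, a difference of 0.38 (SE 0.11, adjusted p = 0.106, limma), at the fold threshold without reaching it. Mbnl2, Ppil4 and Helz differed by 0.29 (SE 0.12), 0.27 (SE 0.11) and 0.25 (SE 0.09), and the other circles of Ppil4 and Helz by 0.09 and 0.18. The Elavl2 circle shown above was level, at 9.49, 9.44 and 9.24 against 9.40, 9.39 and 9.36.

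Motor and membrane traffic genes gave 2 calls in 13 members, where 8.59% was the background. Trak1, which links mitochondria to kinesin, gave a circle at 5.66, 5.55 and 5.67 after surgery and 5.18, 5.04 and 5.29 in controls, detected on 1 control array, with a difference of 0.46 (SE 0.10, adjusted p = 0.0722, limma). Uso1, a tether of Golgi vesicles, gave 6.09, 6.34 and 6.27 against 5.94, 5.72 and 5.87 and a difference of 0.39 (SE 0.10), and its call was lost without surgery replicate 2, surgery replicate 3 or control replicate 2. The groups were apart for both. Actin, microtubule and small GTPase genes had 15 members, no call, 2 unadjusted p under 0.05 (limma) and the lowest median, 0.06, although Raph1 reached 0.36 (SE 0.12) and Clasp1 0.26 (SE 0.10). Cilia and centrosome genes had 11 members, no call, 1 unadjusted p under 0.05 (limma) and a median of 0.07, with Bbs9 and Dnah2 at 0.22 (SE 0.10) and 0.28 (SE 0.16). For Dnah2 the groups overlapped, and the difference ran from -0.0034 to 0.51 over 22 alternatives.

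**Figure D4:**
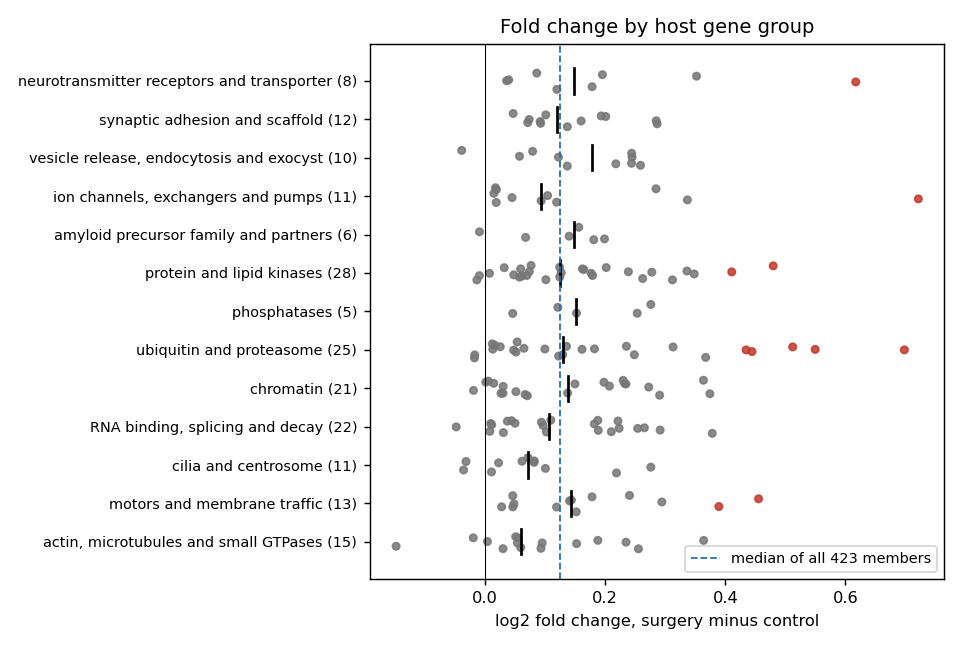
Log2 difference, surgery minus control (x axis), of the members in 13 groups of host genes (number of members in brackets). Points are circles, red where called, black bars are group medians and the dashed line is the median of all 423 members, 0.12. The 5 red points of the ubiquitin group and the single ones for Unc80 and Grin3a lie right of the other points of their groups.

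Listed host genes held 187 members and 11 of the 33 calls. Outside the lists and the leading circles, the remaining called members, named after their values were seen apart from Med14, came from Agfg1, AK086712, S100pbp, Med14, Prrc2b, Reep1, Tmem120b, Acbd5, Mob1a, Zc3h18, Pde7a, Uck2 and Ints9 and from the second Ankra2 circle. Their differences ran from 0.39 for Ints9 to 0.49 for that Ankra2 circle. Med14, of the Mediator complex, was detected on no control array and had a floored fold of 1.39, the same as its measured fold, with the limits given for Ltn1. Another 85 members had groups that did not overlap without being called.

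Of the 16 genes with several circles, Ankra2 was the only gene with more than 1 called. Its longer circle measured 6.27, 6.73 and 6.20 in surgery mice and 5.89, 5.77 and 5.94 in controls, and its shorter one, which lies within it, 6.52, 7.26 and 6.81 against 6.21, 6.49 and 6.43. Surgery replicate 2 was the highest in both. The differences were 0.53 (SE 0.14, adjusted p = 0.0916) and 0.49 (SE 0.17, adjusted p = 0.156) by limma, and without surgery replicate 2 neither was called; the shorter circle's call was also lost without control replicate 1. The circles share sequence in the genome and are not independent.

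The 2 Acbd3 circles with a common exon end differed most within a gene. The circle that starts upstream measured 5.72, 5.81 and 5.65 against 5.64, 5.25 and 5.23, groups apart, with a difference of 0.35 (SE 0.12). The one that starts downstream measured 6.52, 6.51 and 6.25 against 6.78, 6.17 and 6.30, with control replicate 1 the highest of all, and a difference of 0.01 (SE 0.15). In the Uck2 pair the differences were 0.41 (SE 0.11), called but not without surgery replicate 2 or control replicate 1, and 0.27 (SE 0.15), uncalled. The Gtpbp4 pair was flat, at 0.09 (SE 0.09) and 0.01 (SE 0.11). Prrc2b had 1 called circle (0.49, SE 0.10) and 1 that was not (0.22, SE 0.11). These differences within genes were not tested.

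Ep300, the histone acetyltransferase, had the most members, 3, and no call. Its circles at chr15:81639740-81641425, chr15:81608196-81611523 and chr15:81631613-81632512 differed by 0.15 (SE 0.10), 0.03 (SE 0.11) and 0.03 (SE 0.12), and the groups met at an equal value for the first and overlapped for the others. The first 2 lay at either end of the stretch of gene that the 3 circles cover.

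Differences were of like size in all classes of span. The 71 members under 1 kb had a median of 0.12 with 4 called (5.63%), and the 63 from 1 to 2 kb 0.14 with 8 called (12.7%). The 124 from 2 to 5 kb had 0.14 with 9 called (7.26%), and the 165 from 5 to 10 kb 0.12 with 12 called (7.27%). Of circRNAs with a higher surgery mean 8.59% were called, and differences between the classes were not tested. Across the 423 members the correlation of log10 span with the difference was 0.0056 (Pearson) and -0.0099 (Spearman), as a description, since all points share the same 6 arrays. With probe GC content it was -0.059 and 0.0052, and with the mean level 0.059 and 0.149.

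Among the shortest circles were those of Aig1 (102 bases) and Pantr1 (163 bases). Aig1 measured 5.46, 5.70 and 5.43 against 5.09, 6.12 and 5.22, with control replicate 2 the highest and control replicate 1 the lowest of the 6. The Pantr1 circle measured 6.23, 6.21 and 6.12 against 5.97, 6.14 and 6.20, with a difference of 0.08 (SE 0.10), and its groups overlapped. At the other end, just under the limit, were Med13l (9959 bases, 0.11), Oxsr1 (9978 bases, 0.41) and Nrg3 (9987 bases, 0.02). Just over it were Ric3 (10059 bases, 0.18), Cdh2 (10077 bases, -0.01) and Zcchc2 (10079 bases, 0.44).

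**Figure D5:**
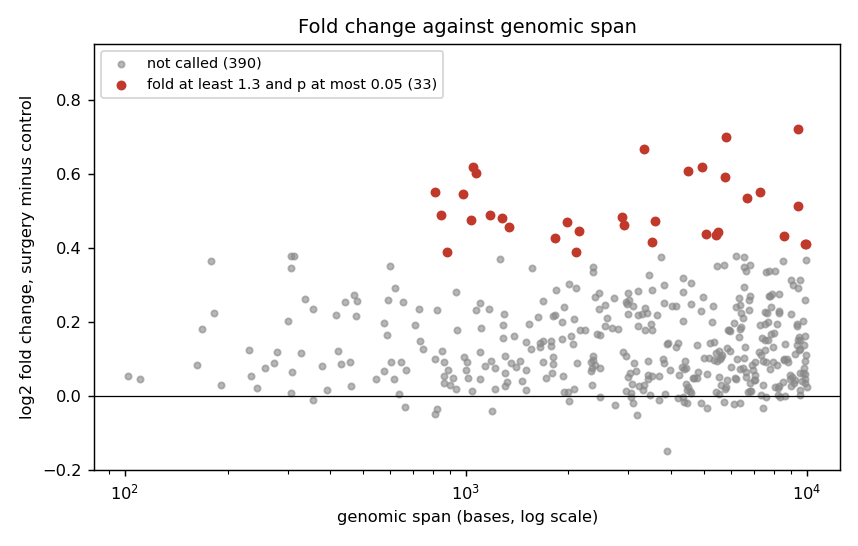
Log2 difference, surgery minus control (y axis), against genomic span in bases (x axis, log scale) for the 423 members, red where called (33) and gray where not (390). Red points lie from 810 to 9978 bases with no drift in height, and the bulk of gray points lies between 0 and 0.38.

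Some members were flat. Of the members detected on all 6 arrays, the circles of Kdm5a, a histone demethylase, Ror1, a Wnt5a receptor, and Ddah1, which clears asymmetric dimethylarginine, had the smallest differences (0.00089, -0.0024 and -0.0024), and their groups overlapped. With quantile normalization 25 members lay below 0 although the list was of higher circles, and with a normexp background correction of offset 16 none did (0 of 423). That same correction defined the 6097 circRNAs with a higher surgery mean, of which 270 lay below 0 with quantile normalization. The lowest was Arhgap5, with 5.18, 5.17 and 5.40 against 5.39, 5.52 and 5.29, a difference of -0.15 (SE 0.10), detected on 1 control array, followed by Depdc5 at -0.05 (SE 0.11). Neither was called.

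Other cell types were checked by their marker genes among the hosts. Of 7 neuron markers, 2 hosted members (Slc17a7 and Grin2b), and all 3 circles were detected on all 6 arrays. Their summed linear level ran from 451 to 483 in the surgery group and from 358 to 487 in the control group. Of 5 oligodendrocyte markers, 1 hosted a member (Ugt8a), with sums of 59.5 to 71.9 and 51.5 to 62.6. Of 4 markers of ciliated ependyma, 3 did (Dnah12, Dnah2 and Spag17), with 226 to 267 and 191 to 249, and 1 of their 3 circles was detected on all 6 arrays. No astrocyte, microglia or endothelium marker hosted a member. The part of these cells in the differences was not tested.

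Position on the slide moved with the groups. The surgery arrays lay in columns 1 and 2, and the control arrays in columns 2 to 4, while surgery replicates 2 and 3 alone filled row 2. With the column as a covariate 28 members were called, 16 of them among the 33, and with the row as a block 45 were, 21 among the 33. Over all tested circRNAs 415 and 748 were called higher, in place of 524. Under either of these 2 fits no member had an adjusted p under 0.05 (limma), while 33 and 63 members had an unadjusted p under 0.05.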

How the data were processed

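Hippocampal RNA of 3 surgery and 3 control mice was hybridized to one-color circRNA arrays, 1 mouse per array. The authors scanned the arrays with Agilent Feature Extraction and deposited, per spot, intensities (median signal, local background and a background-subtracted processed signal) and yes-or-no marks coded 1 and 0, with no normalization between arrays. The values the authors' annotated list gives for its own comparison (fold changes and p-values) were not used. That list supplied the circle's name, host, type, coordinates and probe, and was read only in part (1257 circRNAs).

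Members were joined to the arrays by probe. The log2 median signal was quantile normalized over all 15712 spots, spots that the scanner software called not uniform were left out, and the 12499 of 14236 circRNAs detected on at least 3 of 6 arrays were tested by limma 3.58.1 (lmFit, eBayes; R 4.3.3). The submitters' processing notes name limma too, and the methods' t-test was an alternative. Thresholds were a fold of 1.3 with an unadjusted p of 0.05, and an adjusted p of 0.05 (Benjamini-Hochberg). The procedure was tested on simulated data with 3 arrays per group, where it found 43.3% of 1.5-fold, 89.6% of 2-fold and 100% of 4-fold changes. The simulated noise was independent between circRNAs, without slide position and without normalization. These shares therefore describe the simulation and not these arrays. The number of arrays limits precision.

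Hosts were matched to the RefSeq table of GRCm38.p6: 422 of 423 matched, 421 circles lay inside the gene and 19 hosts had a newer symbol. Members, host lists and tests were chosen with earlier results of these data known. Circles were named by rule: an adjusted p under 0.05, the 12 largest called differences, all receptor and amyloid-family hosts, the 4 smallest p-values of each other host list, the gene with the most circles, the span extremes, the 3 flattest, the 2 lowest, and the 5 largest among those detected on no control array. Others named were chosen after their values were seen. Some circles that the rule names are not reported here. Alternatives covered the test, scaling, background correction, signal column, detection filter, replicate block, slide position and leaving out each array.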

Additional observations from a re-analysis of the deposited data

How the results depend on the processing

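The 33 calls became 54 with no normalization between arrays, 17 with scaling to the 75th percentile, 12 with a normexp offset of 50, 91 with the processed signal and 20 among members detected on all 6 arrays, and 29 to 51 with 1 array left out (51 without control replicate 1). Over all 12499 tested circRNAs the 524 higher calls became 973, 373, 171 and 1334 in the same order. They became 360 of the 9214 detected on all 6 arrays, and 423 to 767 with 1 array left out. The 1 adjusted call became 0 with the methods' t-test (87 members with an unadjusted p under 0.05, 32 called), 0 with a normexp offset of 50 (96), 0 among members detected on all 6 arrays (62) and 0 with slide column or row, 15 with an intensity trend, 4 with no normalization (Anapc4 not among them), 18 with the 75th percentile (17 higher, 1 lower), 2 with cyclic loess, 7 with a normexp offset of 16, 8 with the processed signal, and 0 to 4 with 1 array left out (64 to 100 with an unadjusted p under 0.05). Over all 12499 tested circRNAs, in either direction, 6 had an adjusted p under 0.05 (limma). That became 153 with the trend, 157 with no normalization, 2544 with the 75th percentile and 13 with cyclic loess. It became 59 with a normexp offset of 16, 84 with the processed signal and 0 to 77 with 1 array left out. The members' counts are no result about short circles. The 118 members without overlap became 60 with no normalization, 54 with the 75th percentile and 76 among those detected on all 6 arrays, and 133 to 169 with 1 array left out, where fewer arrays have to be apart. The median difference of 0.12 turned to -0.040 with the 75th percentile and moved to 0.085 and 0.22 with a normexp offset of 50 and the processed signal, and stayed within 0.12 to 0.15 with 1 array left out. With the replicate number as a block, 33 members were called and 18 had an adjusted p under 0.05 (limma). Over all tested circRNAs 540 were called higher and 199 had an adjusted p under 0.05 in that fit. The paper speaks of 3 pairs of hippocampal samples. Same-numbered arrays deviated together with r = 0.28, 0.25 and -0.02, and arrays of unlike number with r from -0.36 to 0.17. Since not all same-numbered arrays deviated together, the numbers were not taken to pair the mice, which these values cannot settle. For the 82 named circles, 1560 of 1779 comparisons with an alternative kept direction and side of the threshold, 48 lost a call, 75 gained one and 96 changed sign, none of the last in a called circle. The causes of these shifts were not tested. Detection on the control arrays was incomplete, with 12, 29 and 99 members detected on 0, 1 and 2 of them, and whether dim signal limited the differences was not tested.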
